A study of Homo sapiens with 18 samples.

Results

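The ABCC subfamily of ATP-binding cassette transporters was described in 18 RNA-seq libraries of BE(2)-m17, an established human neuroblastoma line, as its 10 endogenous members ABCC1, ABCC2, ABCC3, ABCC4, ABCC5, ABCC6, ABCC8, ABCC9, ABCC10 and CFTR. These 10 genes were found by symbol among 57905 Ensembl gene IDs counted in every library. All cells carried the vector pSBbi-Hyg-APP, an APP transgene kept by hygromycin selection. On top of it they carried either pSBbi-Pur, an empty puromycin vector (Puro, the empty vector control), or pSBbi-Pur-ABCC1(WT), which holds a codon-optimized ABCC1 cDNA (ABCC1-overexpressing cells). Both are Sleeping Beauty transposon vectors, and each line was a stably selected population, so expression reflects integrated transgenes at unselected sites. The experiments are numbered RNA1, RNA2 and RNA3, each with 3 libraries per line. Wells were seeded with 14000000 cells and lysed on day 4, and the seeding was repeated weekly. The comparison asks whether forced expression of one ABC exporter goes with changes in the endogenous copies of its own subfamily.

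Most ABCC proteins use ATP to move organic anions, glutathione conjugates and drugs out of the cell, and several were first known from multidrug-resistant tumours. The subfamily also holds proteins with other jobs. ABCC8 and ABCC9 are sulphonylurea receptors, which regulate potassium channels instead of pumping a substrate, and CFTR is a chloride channel. ABCC1 itself exports glutathione and glucuronide conjugates, among them leukotriene C4, and is a known drug-resistance pump in neuroblastoma.

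The total count of a library ran from 8866994 to 57937653 read pairs, with the lowest totals in RNA3. Levels are given as CPM, counts relative to a library total of 1000000, scaled by the trimmed mean of M-values (TMM) and divided by the exon length in kilobases (kb), so that genes can be compared. Per the study's methods, RNA1 was made with TruSeq RNA v2 and the other experiments with a SMARTer total RNA kit, although the labels of RNA1 name both kits. The study also describes cryopreserved and then newly transfected cells for the later experiments, which the labels do not assign. Kit, cells and experiment cannot be told apart. Each library also carried reads on genes taken as silent in these cells. They were measured as the level of 349 olfactory receptor genes, which averaged 0.00512 CPM per kb in the RNA1 Puro libraries, 0.582 in RNA2 and 1.59 in RNA3. In the ABCC1(WT) libraries this background was lower, at 0.00412, 0.303 and 1.26 CPM per kb, and in RNA2 it ranged from 0.139 to 0.432 between libraries. In each experiment every ABCC1(WT) library lay below every Puro library in this level, which thus goes with line. Fits that take it as a covariate therefore cannot separate background from line, and a lost call or turned sign there decides nothing. All 10 neuroblastoma markers of a list of transcription factors and catecholamine or granule genes had counts in every group, with a summed level of 2465 to 4732 CPM per kb. Of 8 markers of other cell types, the summed level was 0.299 to 0.489 CPM per kb in RNA1, with KRT5 at 0 counts in both lines. It was 2.7 to 7.61 in RNA2 and 10.9 to 16.4 in RNA3. In all libraries of a group, 2 of the 8 (Puro) and 3 of the 8 (ABCC1(WT)) exceeded 5 times the low olfactory receptor level in RNA1, and 0 did in RNA2 and RNA3. Of the neuroblastoma markers, 2 rose and 6 fell with ABCC1 overexpression in RNA1, where 37.6% of all genes tested were called, and 1 rose and 2 fell in RNA3, where 2.80% were. TH rose in both and DBH and PHOX2A fell in both. In RNA2 edgeR called 0, with 5 at an unadjusted p under 0.05 and 3 called by DESeq2, which called 18.4% of all genes there. Of the markers of other cell types, edgeR and DESeq2 called 0 in RNA1 and RNA2, with 0 and 3 at an unadjusted p under 0.05.

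The transgene separated the lines in every experiment. Exogenous ABCC1 had 328102 to 594404 counts in the ABCC1(WT) libraries of RNA1, 84990 to 148783 in RNA2 and 51035 to 58631 in RNA3. The Puro libraries held 0 to 15 counts. Per kb, exogenous ABCC1 stood 112.2 ± 5.59 times above the endogenous gene in the same libraries of RNA1 (SD, n = 3), 76.5 ± 9.97 times in RNA2 and 55.3 ± 2.53 times in RNA3. The recoded cDNA was counted apart from the endogenous exons, which makes the endogenous ABCC1 gene a readout of its own.

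In the GRCh37 annotation of the counts, endogenous ABCC1 (ENSG00000103222) spans chr16:16043434-16236931 on the plus strand. ABCC6 (ENSG00000091262) lies next to it on the minus strand, at chr16:16242785-16317379. ABCC4 (ENSG00000125257) is at chr13:95672083-95953687 and ABCC5 (ENSG00000114770) at chr3:183637722-183735803. The exons of ABCC1, ABCC2, ABCC3, ABCC4, ABCC5, ABCC6 and ABCC8 share no base with another gene, and those of ABCC9, ABCC10 and CFTR share 0.762%, 0.977% and 0.728% of their bases.

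ABCC1, ABCC4, ABCC5 and ABCC10 were the abundant members. In the RNA1 Puro libraries they supplied 97.9 ± 0.0717% of the summed level of the 10 members (SD, n = 3), in RNA2 79.2 ± 2.37% and in RNA3 70.6 ± 4.19%. ABCC4, an exporter of cyclic nucleotides and prostaglandins, was highest at 21.8 ± 0.603 CPM per kb. Endogenous ABCC1 followed at 20.1 ± 0.292, then ABCC5, a cyclic nucleotide exporter, at 8.80 ± 0.323, and ABCC10, a broad drug-resistance pump, at 4.39 ± 0.108 CPM per kb. Ranges of neighbouring genes in this order did not overlap. In RNA2 and RNA3, the Puro libraries of ABCC1 and ABCC4 overlapped, with ABCC1 at 10.5 ± 1.22 and 14.8 ± 2.93 CPM per kb and ABCC4 at 9.87 ± 1.41 and 9.99 ± 2.25. ABCC5 and ABCC10 came next in that order, and their libraries overlapped with neither neighbour.

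The other 6 members were low. In the RNA1 Puro libraries, ABCC2, a canalicular exporter of conjugates, averaged 0.305 CPM per kb. ABCC6, which mediates ATP release and is mutated in pseudoxanthoma elasticum, averaged 0.254, the receptors ABCC9 and ABCC8 averaged 0.247 and 0.224, and ABCC3, a basolateral conjugate exporter, averaged 0.131. ABCC6 and ABCC9 overlapped here and the other neighbours did not. CFTR held 1, 4 and 1 counts in the RNA1 Puro libraries and 0 in each ABCC1(WT) library, where a count of 0 allows up to 0.00655, 0.0115 and 0.00639 CPM per kb. This limit of 3 counts covers counting error only.

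In RNA2 and RNA3 the low members were read at higher levels, and so was the background. The Puro mean of ABCC3 was 1.41 CPM per kb in RNA2 and 3.39 in RNA3, which is 2.43 and 2.14 times the olfactory receptor level. ABCC2 stood at 2.44 and 2.24 times that level, ABCC6 at 3.27 and 2.36, ABCC8 at 2.28 and 1.47, and ABCC9 at 1.72 and 0.775. CFTR lay below it, at 0.517 and 0.466 times. ABCC12, an ABCC gene outside the 10 with 0 or 1 counts in each RNA1 library, stood at 2.01 and 1.93 times the same level. So in RNA2 and RNA3 several low members were read at a level like that of ABCC12. Of 4073 genes with no count in RNA1 and at least 1000 bp of exon, 96.2% lay below ABCC3 in the RNA2 Puro libraries, 93.2% below ABCC12 and 99.8% below ABCC10.

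**Figure D1:**
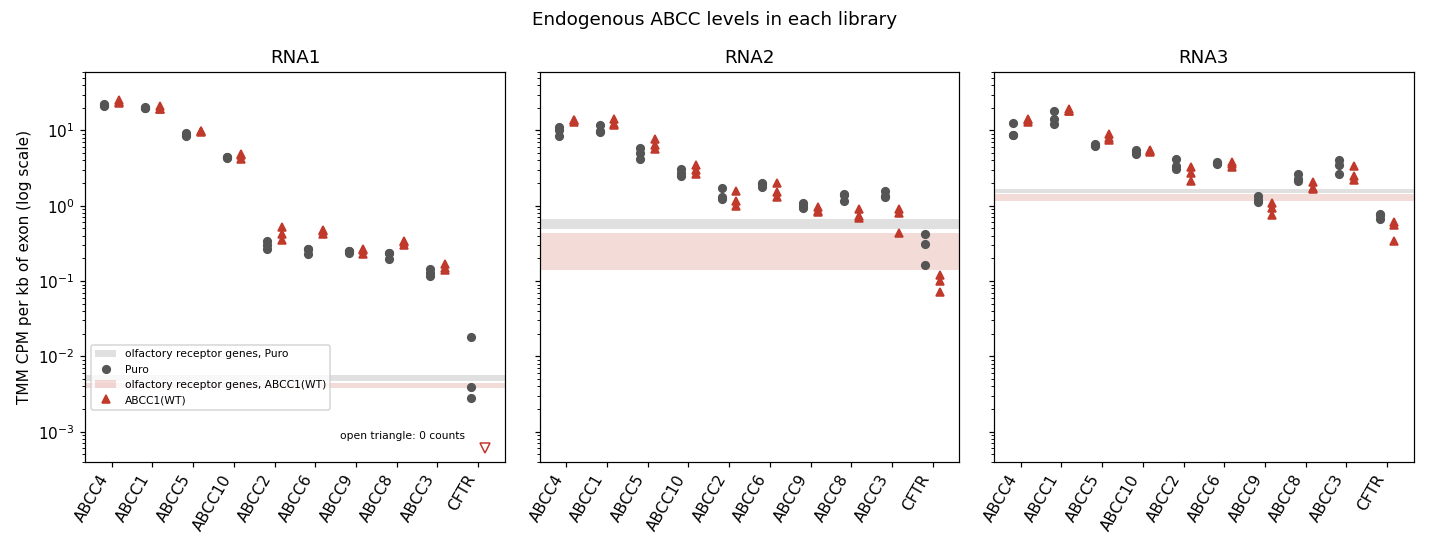
Level of each endogenous ABCC member (TMM CPM per kb of exon, log scale) in every library, with grey circles for Puro and red triangles for ABCC1(WT), in RNA1, RNA2 and RNA3. Shaded bands span the level of 349 olfactory receptor genes in the libraries of each line. ABCC4, ABCC1, ABCC5 and ABCC10 lie above the bands in all libraries, while the bands rise from about 0.005 in RNA1 to between 1.15 and 1.65 CPM per kb in RNA3 and the low members rise with them.

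The promoters of ABCC4 and ABCC5 are shown because these were the members higher in ABCC1-overexpressing cells both in RNA1 and in the fit of all 18 libraries, as described further on. The 250 bases upstream of each start are from RefSeq (GRCh38.p14, a later build than the GRCh37 of the counts) and run 5′ to 3′ along the gene, which lies on the minus strand in both cases. They span chr13:95301452-95301701 for ABCC4 and chr3:184017885-184018134 for ABCC5. Capitals mark matches on either strand to GGGCGG (the GC box), CACGTG (an E-box) or TGACNNNGC (the core of the antioxidant response element).
ABCC4: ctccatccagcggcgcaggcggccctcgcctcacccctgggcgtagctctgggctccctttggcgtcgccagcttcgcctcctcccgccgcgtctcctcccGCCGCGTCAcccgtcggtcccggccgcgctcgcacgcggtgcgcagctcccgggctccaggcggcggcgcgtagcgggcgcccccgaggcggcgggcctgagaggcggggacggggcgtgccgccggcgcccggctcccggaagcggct
ABCC5: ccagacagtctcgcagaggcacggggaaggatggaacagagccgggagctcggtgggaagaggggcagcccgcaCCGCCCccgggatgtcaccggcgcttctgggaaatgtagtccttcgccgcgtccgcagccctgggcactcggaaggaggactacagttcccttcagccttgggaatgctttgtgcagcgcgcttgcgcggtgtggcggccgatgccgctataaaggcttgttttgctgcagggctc

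The ABCC4 window was 80.4% G or C and the ABCC5 window 64.8%, against a median of 58.0% over 35116 promoters. ABCC4 held 1 match to TGACNNNGC, whose first base lay 149 bases upstream of the start, and ABCC5 held 1 match to GGGCGG, 176 bases upstream. Neither held CACGTG. Of all promoters in the same window, 10.9% held TGACNNNGC, 42.6% GGGCGG and 6.34% CACGTG. These are matches of letters and not sites known to be bound. Entries were matched for 7 of the 10 members, and ABCC1, ABCC3 and ABCC8 were not among them.

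In RNA1, 5 of 9 members tested were called at an adjusted p of at most 0.05 (edgeR quasi-likelihood test, Benjamini-Hochberg over 16995 genes), all of them higher in the ABCC1-overexpressing cells. Of all genes tested, 37.6% were called and 17.9% were called higher. The 5 were ABCC2, ABCC4, ABCC5, ABCC6 and ABCC8, and CFTR had too few counts to pass the filter. Without the filter 6 members were called, the sixth being CFTR, lower on 1, 4 and 1 counts against 0 in each ABCC1(WT) library. Over all genes, 7348 of 35728 were called without the filter. The libraries of the lines did not overlap for these same 5 members, which was true of 50.4% of genes. The median log2FC was 0.16 over the 9 members and 0.01 over all genes. The count of 5 was 1 with the olfactory receptor level of each library as a covariate and 1 with a spread shared across 18 libraries, in both cases ABCC6. With that covariate, which did not overlap between the lines, the log2FC was 0.77 for ABCC2, 0.14 for ABCC4, 0.06 for ABCC5 and 0.44 for ABCC8. Over all genes 1131 were called with the covariate in place of 6382, and 1528 of 46225 with the shared spread. The count was 3 with DESeq2 (ABCC4, ABCC5 and ABCC6), which called 22.9% of genes and 10.1% higher, 3 without Puro replicate 1 or 3, and 2 without Puro replicate 2. Over all genes, 4981, 4637 and 4979 were called without Puro replicate 1, 3 and 2.

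The abundant exporters moved little in RNA1. ABCC4 was at 22.3, 21.8 and 21.1 CPM per kb in the Puro libraries and 24.0, 25.1 and 23.5 in the ABCC1(WT) libraries. All 3 ABCC1(WT) libraries were above all 3 Puro libraries, with a log2FC of 0.15 ± 0.04 (SE; edgeR adjusted p = 0.015). ABCC5 rose as little, from 8.72, 8.53 and 9.16 to 9.59, 9.85 and 9.97 CPM per kb, a log2FC of 0.16 ± 0.04 (edgeR adjusted p = 0.0143). Endogenous ABCC1 was at 20.4, 19.9 and 19.9 CPM per kb in Puro and 19.5, 19.1 and 21.1 in ABCC1(WT). These groups overlapped, and the log2FC was -0.01 ± 0.04 (edgeR adjusted p = 0.862). ABCC10 overlapped too, at 4.29 to 4.50 against 4.24 to 4.87 CPM per kb, with a log2FC of 0.07 ± 0.06 (edgeR adjusted p = 0.42).

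The low members called in RNA1 had larger folds on few reads. ABCC6 had 87, 55 and 55 counts in Puro and 204, 112 and 184 in ABCC1(WT), or 0.231 to 0.267 against 0.420 to 0.477 CPM per kb. Its log2FC of 0.82 ± 0.12 (edgeR adjusted p = 0.000412) was called under each of the 13 alternatives tried in RNA1, with an adjusted p from 1.25e-07 to 0.0406. ABCC6 has near-identical pseudogenes, ABCC6P1 and ABCC6P2, and pairs that map to several places were not counted. The pseudogenes held 0 to 4 counts per RNA1 library, so how much of the ABCC6 signal was lost to them is uncertain. ABCC8 went from 70, 37 and 51 counts to 131, 72 and 119, a log2FC of 0.51 ± 0.14 (edgeR adjusted p = 0.0135). ABCC2 went from 73, 58 and 60 counts to 150, 71 and 188, a log2FC of 0.55 ± 0.17 (edgeR adjusted p = 0.0241). With DESeq2 the adjusted p was 0.0889 for ABCC8 and 0.0731 for ABCC2. ABCC3 had 31 to 54 counts against 44 to 93 (log2FC 0.24 ± 0.16, edgeR adjusted p = 0.27), and ABCC9 had 79 to 118 against 85 to 173 (log2FC 0.04 ± 0.11, edgeR adjusted p = 0.81).

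In RNA2, 1 of 10 members was called, ABCC3, which was lower in the ABCC1-overexpressing cells. Of 34091 genes tested, 1.70% were called and 0.458% were called lower. The median log2FC was -0.18 over the members and -0.19 over all genes, which RLE size factors moved by 0.11 to -0.08. ABCC3 had 1.59, 1.32 and 1.33 CPM per kb in Puro and 0.433, 0.8 and 0.903 in ABCC1(WT). The groups did not overlap, and the log2FC was -0.99 ± 0.24 (edgeR adjusted p = 0.0358). The lowest library was ABCC1(WT) replicate 1, which also had the lowest olfactory receptor level of the 6, at 0.139 CPM per kb. With that level as a covariate, the log2FC of ABCC3 was -0.35 (edgeR adjusted p = 0.907), and 12 of 34091 genes were called. No member was called without Puro replicate 1, 2 or 3 or without ABCC1(WT) replicate 1 or 2, where the log2FC of ABCC3 was -0.87, -1.03, -1.02, -0.72 and -1.06. Over all genes, 581 were called, and without these libraries 301, 221, 8, 208 and 24. Without ABCC1(WT) replicate 3 ABCC3 was called, at -1.17, and over all genes 1359 were. DESeq2 called 3 members, ABCC3 lower and ABCC4 and ABCC5 higher by a log2FC of 0.58 and 0.55. Of the 15493 genes to which it gave an adjusted p, 18.4% were called and 16% higher, with a median log2FC of 0.30. With 10 or more counts required in each library, and with a spread shared across 18 libraries, edgeR called 3, ABCC3, ABCC8 and CFTR. Over all genes, 788 of 22178 were called with that filter (438 lower) and 4924 of 46225 with the shared spread (2818 lower).

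The abundant members leaned higher in RNA2 without passing the test. ABCC4 was at 8.40, 11.2 and 10.0 CPM per kb in Puro and 13.8, 13.6 and 12.8 in ABCC1(WT), with no overlap, and its log2FC was 0.44 ± 0.17 (edgeR adjusted p = 0.14). Endogenous ABCC1 was at 9.96, 11.9 and 9.59 against 14.1, 12.2 and 11.9 CPM per kb (log2FC 0.28 ± 0.17, edgeR adjusted p = 0.323), where the nearest libraries were almost level. ABCC5 overlapped, at 4.17 to 5.90 against 5.73 to 7.69 (log2FC 0.40 ± 0.17, edgeR adjusted p = 0.19). ABCC8 was at 1.43, 1.17 and 1.38 CPM per kb in Puro and 0.721, 0.898 and 0.689 in ABCC1(WT), without overlap (log2FC -0.79 ± 0.25, edgeR adjusted p = 0.0886). CFTR had 78, 39 and 53 counts against 15, 21 and 25, at a level below the olfactory receptor genes in both lines (log2FC -1.63 ± 0.54, edgeR adjusted p = 0.099). In all, 5 of 10 members did not overlap, 2 above and 3 below the control, against 29.8% of genes.

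In RNA3, 0 of 10 members were called by edgeR, where 2.80% of 36509 genes were called. At an unadjusted p under 0.05 there were 3, and DESeq2 called 2, ABCC4 and ABCC5, both higher. Of the 11377 genes to which DESeq2 gave an adjusted p, 14% were called and 12.7% higher, with a median log2FC of 0.17. Without Puro replicate 2, edgeR called 2, ABCC1 and ABCC4. Over all genes that fit called 2762 of 39046, of which 2338 were higher, in place of 1021 of 36509. Puro replicate 2 was the highest Puro library for both members. ABCC4 was at 8.67, 12.6 and 8.70 CPM per kb in Puro and 12.9, 13.8 and 14 in ABCC1(WT), a log2FC of 0.44 ± 0.18 (edgeR adjusted p = 0.184). Endogenous ABCC1 was at 14.4, 17.9 and 12.1 against 18, 19.3 and 18.3 CPM per kb, a log2FC of 0.32 ± 0.18 (edgeR adjusted p = 0.407). ABCC5 was at 6.63, 6.46 and 6.23 against 7.85, 7.52 and 8.99 CPM per kb, a log2FC of 0.33 ± 0.17 (edgeR adjusted p = 0.337). For all 3 genes the lowest ABCC1(WT) library was above the highest Puro library. ABCC8, ABCC9 and CFTR lay below the control without overlap, so 6 of 10 members did not overlap, against 19.5% of genes. The median log2FC was -0.19 over the members and -0.09 over all genes. Exact permutation tests (two-sided) with 3 libraries per line have a smallest possible p of 0.1, and each member without overlap, in any experiment, gave that value.

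**Figure D2:**
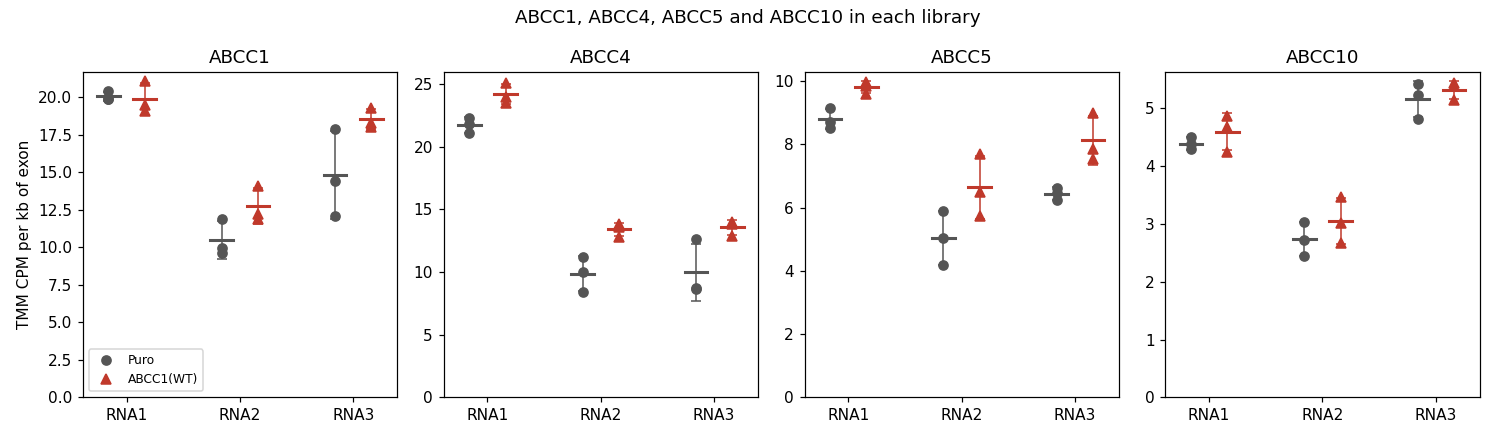
Level (TMM CPM per kb of exon) of the endogenous ABCC1, ABCC4, ABCC5 and ABCC10 in each library of RNA1, RNA2 and RNA3. Grey circles are Puro, red triangles ABCC1(WT), thick bars the mean of 3 libraries and thin bars ± SD. ABCC4 lies higher in the ABCC1(WT) libraries without overlap in every experiment, and ABCC10 overlaps in every experiment.

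The fit of all 18 libraries gave the mean effect over experiments and called 4 members, 3 higher and 1 lower. Of 46225 genes, 12.9% were called, 9.39% higher and 3.55% lower. ABCC4 had a mean log2FC of 0.41 ± 0.09 (edgeR adjusted p = 0.00113), or 32.7% higher. ABCC5 had 0.36 ± 0.09 (edgeR adjusted p = 0.00247), or 28.7% higher. Endogenous ABCC1 had 0.26 ± 0.09 (edgeR adjusted p = 0.0476), which with RLE size factors was 0.17 (adjusted p = 0.128). For ABCC4 and ABCC5 the RLE values were 0.32 and 0.27, with adjusted p of 0.00136 and 0.00936. With the olfactory receptor level as a covariate, none of the 3 passed, at 0.31, 0.22 and 0.13 for ABCC4, ABCC5 and ABCC1 (adjusted p of 0.141, 0.377 and 0.766). That fit called ABCC6 and CFTR, and over all genes 2172 of 46225 in place of 5980. ABCC3, at -0.29 ± 0.12 and not called (edgeR adjusted p = 0.115), was called lower with DESeq2 (adjusted p = 0.0448), with RLE size factors (0.0302) and where each library had to hold 10 counts or more (0.0122). With that filter the mean log2FC was 0.23 for ABCC4 (adjusted p = 0.0026), 0.17 for ABCC5 (0.0306) and 0.08 for endogenous ABCC1 (0.26), and ABCC8 and ABCC9 were called lower. In RNA1 alone, the joint model, with its own scaling and gene filter, gave endogenous ABCC1 a log2FC of 0.09 and ABCC4 one of 0.25. Over all genes the called genes split into 4339 higher and 1641 lower, with RLE size factors into 3094 and 2317, and with at least 10 counts in every library into 2437 and 3005.

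CFTR was the member called lower in the joint fit (edgeR adjusted p = 0.00142). Its fitted value depends on the 0 counts of the RNA1 ABCC1(WT) libraries and is not given as a fold. In the other experiments it lay below the olfactory receptor level, which was itself lower in the ABCC1-overexpressing cells, and with that level as a covariate CFTR was still called (edgeR adjusted p = 0.0351).

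The effect of ABCC1 overexpression differed between experiments for 3 of 10 members, ABCC3, ABCC6 and ABCC8, where 1.19% of 46225 genes were called by the interaction of line and experiment. ABCC6 had the log2FC of 0.82 in RNA1 but -0.24 ± 0.19 in RNA2 and -0.06 ± 0.16 in RNA3 (interaction, edgeR adjusted p = 0.00972), the last at 0.00 with RLE size factors and 0.02 with DESeq2. With the olfactory receptor covariate these later values were 0.08 and 0.05. ABCC8 was higher in RNA1 and had -0.79 in RNA2 and -0.37 ± 0.19 in RNA3 (adjusted p = 0.0205, and 0.0563 with the replicate block). ABCC3 had 0.24, -0.99 and -0.32 ± 0.17 (adjusted p = 0.0323). This call was kept with the replicate block (0.0497) but lost with RLE size factors (0.0581), a minimum of 10 counts in each library (0.0687) and DESeq2 (0.0725). Between RNA2 and RNA3, the smallest adjusted p of a difference in effect among the members was 0.486, for ABCC3. The 3 genes are low members, and RNA1 and the later experiments differ in kit and in background. The ABCC12 gene, with 0 or 1 counts per library in RNA1, had a log2FC of -0.75 ± 0.29 in RNA2 and -0.33 ± 0.17 in RNA3, neither called (edgeR adjusted p of 0.148 and 0.347). With the olfactory receptor level as a covariate, the interaction was called for ABCC6 and ABCC8, and the adjusted p of ABCC3 was 0.34.

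**Figure D3:**
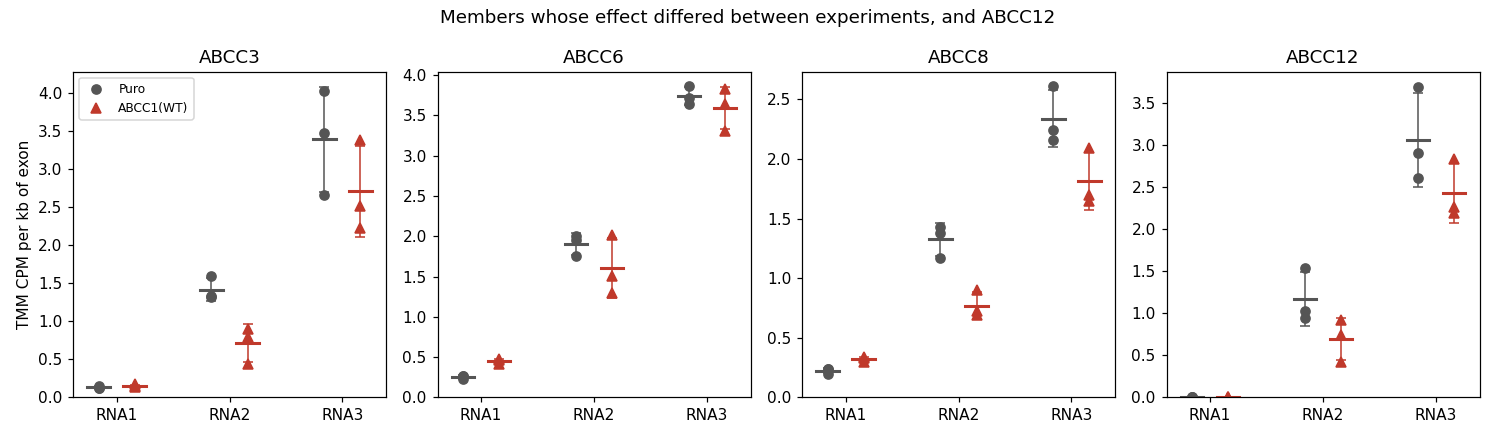
Level (TMM CPM per kb of exon) in each library of ABCC3, ABCC6 and ABCC8, whose effect differed between experiments, and of ABCC12, which had 0 or 1 counts per library in RNA1. Grey circles are Puro, red triangles ABCC1(WT), thick bars the mean of 3 libraries and thin bars ± SD. All 4 genes read higher in RNA2 and RNA3 than in RNA1, and ABCC6 and ABCC8 lie above the control in RNA1 only.

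**Figure D4:**
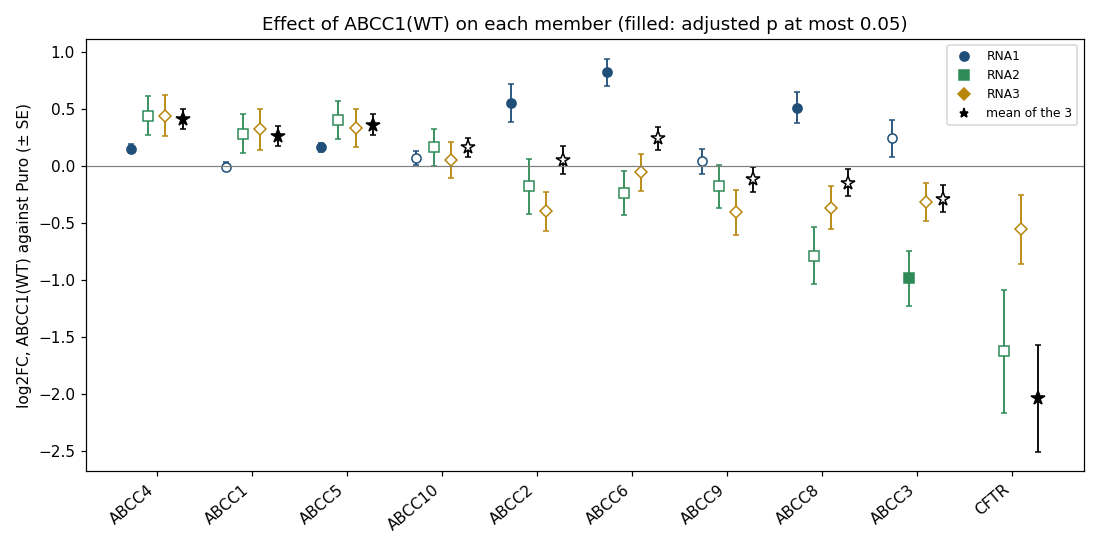
log2FC of ABCC1(WT) against Puro (± SE) for each endogenous member in RNA1 (blue circles), RNA2 (green squares), RNA3 (yellow diamonds) and as the mean of the joint fit (black stars). Filled symbols passed an adjusted p of at most 0.05. The abundant ABCC4 and ABCC5 lie above 0 in each experiment, while ABCC6, ABCC8 and ABCC2 lie above 0 in RNA1 and below 0 in RNA2 and RNA3, except that ABCC6 in RNA3 is at 0.00 with RLE size factors and 0.02 with DESeq2, and that with the olfactory receptor covariate ABCC2 is at 0.23 and 0.15 and ABCC6 at 0.08 and 0.05 in RNA2 and RNA3.

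ABCC10 was not called in any of these fits. In RNA2 it was at 2.45 to 3.04 CPM per kb in Puro and 2.67 to 3.46 in ABCC1(WT) (log2FC 0.16 ± 0.16), and in RNA3 at 4.81 to 5.42 against 5.14 to 5.43 (log2FC 0.05 ± 0.16). Its mean effect was 0.16 ± 0.08 (edgeR adjusted p = 0.279), on the log2 scale. ABCC2 had -0.18 ± 0.24 in RNA2 and -0.40 ± 0.17 in RNA3, and ABCC9 had -0.18 ± 0.19 and -0.41 ± 0.20. Neither passed the test in those experiments.

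Among the rest of the subfamily, 1 of 5 genes could be tested in RNA1. This was ABCC11, an exporter known from earwax type, which had 23, 23 and 19 counts in Puro and 193, 100 and 162 in ABCC1(WT). It rose by a log2FC of 2.27 ± 0.18 (edgeR adjusted p = 5.96e-06), from 0.0909 to 0.428 CPM per kb. In RNA2 it had 178 to 204 counts against 62 to 306 and a log2FC of -0.54 ± 0.35, and in RNA3 214 to 243 against 197 to 230 and a log2FC of -0.28 ± 0.17. Neither was called, and the effects differed between experiments (interaction, edgeR adjusted p = 7.71e-06). Of its exon bases, 5.23% are shared with other genes, LONP2 on the opposite strand among them, and the counts did not use strand. ABCC12, ABCC13, ABCC6P1 and ABCC6P2 were tested in RNA2 and RNA3 only. Of the 5 genes, 0 were called there by edgeR or DESeq2, with 3 at an unadjusted p under 0.05 in RNA2 and 0 in RNA3. In the joint fit, edgeR called ABCC11 higher and ABCC13 lower, and DESeq2 called ABCC13 but not ABCC11. ABCC13 rests like CFTR on 0 counts in the RNA1 ABCC1(WT) libraries.

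The sulphonylurea receptors work with pore-forming subunits of ATP-sensitive potassium channels. KCNJ8, the subunit that works with ABCC9 in vascular muscle, was the gene of its list of 4 called higher in all 3 experiments. It was at 34.2 ± 1.22 CPM per kb in Puro and 38.6 ± 0.469 in ABCC1(WT) in RNA1 (SD, n = 3; log2FC 0.18 ± 0.04, edgeR adjusted p = 0.00761). In RNA2 it rose from 26.4 ± 2.37 to 40.6 ± 1.5 (log2FC 0.62 ± 0.16, edgeR adjusted p = 0.0492), and in RNA3 from 13.5 ± 2.18 to 19.8 ± 2.16 (log2FC 0.54 ± 0.16, edgeR adjusted p = 0.0435). KCNJ11, the partner of ABCC8 in beta cells, had log2FC of -0.25, 0.08 and -0.28 and was not called.

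Other genes of ABCC transport were described by list, beside the 37.6% of all genes called in RNA1, with 17.9% higher. Of 17 phosphodiesterases, which break down the cyclic nucleotides that ABCC4 and ABCC5 export, 15 were tested in RNA1, where 3 rose and 7 fell. In RNA2 0 of 17 were called by edgeR, with 9 at an unadjusted p under 0.05 and 2 called by DESeq2 (PDE4A and PDE8A). In RNA3 edgeR called 1 of 17, with 7 at an unadjusted p under 0.05, and DESeq2 called 1 (PDE4A). PDE4A, which hydrolyses cyclic AMP, was called higher in RNA1 at a log2FC of 0.71 ± 0.10 (edgeR adjusted p = 0.00032) and in RNA3 at 0.61 ± 0.16 (edgeR adjusted p = 0.0166), and had 0.55 ± 0.18 in RNA2 (edgeR adjusted p = 0.104). Of 11 SLCO genes, uptake carriers for many of the same anions, 5 were tested in RNA1 and 2 fell, SLCO2B1 and SLCO3A1. Of 9 regulators, 7 were tested in RNA1, where AHR rose and ARNT and NFE2L2 fell. Of 8 PDZ and ERM proteins, scaffold and sorting proteins of the membrane and its traffic, 7 were tested and PDZK1 rose. Of 10 genes of leukotriene C4 handling, 4 were tested, where GGT7 rose and MGST2 fell. In these 4 lists, edgeR called 0 genes in RNA2 and RNA3. At an unadjusted p under 0.05 there were 3 and 0 for SLCO, 3 and 1 for the regulators, 1 and 0 for PDZ and ERM and 3 and 2 for leukotriene C4. In RNA1, DESeq2 did not call SLCO2B1, PDZK1, MGST2 and the phosphodiesterase PDE3B, which edgeR called. DESeq2 called SLCO2A1, AHR and GGT7 in RNA2 and KEAP1 in RNA3. For scale, the median log2FC in RNA1 was -0.24 for the phosphodiesterases, -0.37 for SLCO, -0.08 for the regulators, -0.02 for PDZ and ERM and 0.15 for leukotriene C4.

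After centring each experiment on its own mean, endogenous ABCC1 varied most like FAM171A1, DAG1, SOX11, PEG10 and ARHGAP35 among 9031 genes of at least 10 CPM in every experiment. Pearson's r of log2(CPM + 0.1) over the 18 libraries was 0.972, 0.969, 0.960, 0.952 and 0.951. The members in the same set had 0.871 (ABCC4), 0.661 (ABCC5) and 0.380 (ABCC10). These are descriptions over libraries that share experiments, lines and depth. In bulk RNA, a difference in level cannot be told apart from a change in the share of cells that express a gene.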

How the data were processed

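RNA-seq libraries of 3 experiments were analysed from read-pair counts per gene. Per the labels and the paper's methods, the authors aligned reads with STAR 2.7.3a to GRCh37, counted pairs on exons with featureCounts (Subread 2.0.0) without strand and deposited the raw counts, unnormalized. Pairs mapping to several places or genes were not counted. The study plated cells weekly, but the labels tie no library to a week. The p-values thus measure the spread between these libraries, not between independently transfected populations. Within an experiment, an effect of the ABCC1 vector cannot be told apart from a difference between the selected populations. In R 4.3.3, edgeR 4.0.16 (filterByExpr with a minimum count of 10, TMM, robust quasi-likelihood, Benjamini-Hochberg over all genes) compared the lines within each experiment and, over 18 libraries, gave the mean effect and the interaction of line and experiment. DESeq2 1.42.0, RLE size factors, other filters, a replicate block, each library left out, a shared spread and background as a covariate were alternatives. Scripts were tested on simulated data. No 2 libraries of a group agreed within sampling noise (chi-square per degree of freedom 1.48 to 22.4). Named genes were all members, and list genes called in at least 2 experiments (others are named where a count was 5 or fewer, after their values were seen). The members and lists were chosen with earlier results of these data known. A marker gene of the lists is not reported here.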

Additional observations from a re-analysis of the deposited data

Results flagged for a closer look

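The effect of ABCC1 overexpression differed between experiments for ABCC6 (adjusted p of the interaction 0.00972), ABCC8 (0.0205) and ABCC3 (0.0323) among the members, and for ABCC11 (7.71e-06) in the rest of the subfamily, as tested in edgeR by quasi-likelihood on the term for line by experiment. For ABCC6, ABCC8 and ABCC11 the log2FC was above 0 and called in RNA1 and below 0 in RNA2 and RNA3, except that ABCC6 in RNA3 was at 0.00 with RLE size factors and 0.02 with DESeq2, and that with the olfactory receptor covariate it was 0.08 in RNA2 and 0.05 in RNA3. The adjusted p for ABCC8 was 0.0563 with the replicate block. That for ABCC3 stayed under 0.05 with the replicate block (0.0497) and was 0.0581 with RLE size factors, 0.0687 with a minimum of 10 counts in each library, 0.0725 with DESeq2 and 0.34 with the olfactory receptor covariate. No group held more than 3 libraries, so single libraries were not tested as outliers.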

How the results depend on the processing

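The replicate numbers of the labels were not taken to pair the libraries, since deviations of same-numbered libraries correlated at -0.14 to 0.09. With the replicate block, RNA3 had 1 called member (ABCC4) in place of 0, and the interaction of ABCC8 had an adjusted p of 0.0563. It changed no other call of a member. The number of members called in RNA1 was 5, and 6 with no filter, 3 with DESeq2, 1 with the olfactory receptor covariate, 1 with a spread shared across 18 libraries and 2 to 5 with a library left out. In RNA2 it was 1, and 3 with DESeq2, 3 with a shared spread, 3 with 10 or more counts required in each library, 0 with the covariate and 0 to 1 with a library left out. In RNA3 it was 0, and 2 with DESeq2 and 0 to 2 with a library left out. In the joint fit it was 4, and 2 with the covariate and 4 or 5 otherwise, though not always the same members. The covariate did not overlap between the lines in any experiment, so fits with it cannot separate background from line. The cause of these changes in calls was not tested.

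Directions turned, most of them for values near 0. With the covariate, which also turned values as far from 0 as -0.40 (ABCC2 in RNA3), the log2FC was -0.00 for ABCC10 in RNA1, 0.23 for ABCC2 and 0.08 for ABCC6 in RNA2, 0.15 for ABCC2, 0.05 for ABCC6 and 0.32 for ABCC3 in RNA3, and 0.07 for ABCC3 in the joint fit. ABCC1 in RNA1 was 0.01 with no filter, 0.09 with a shared spread, 0.00 without ABCC1(WT) replicate 1 and 0.02 without replicate 2. ABCC9 in RNA1 was -0.01 without ABCC1(WT) replicate 1, and ABCC2 in RNA2 ranged from -0.36 to 0.01 with a library left out (0.01 without Puro replicate 1). ABCC6 in RNA3 was 0.02 with DESeq2, 0.00 with RLE size factors, 0.02 with a shared spread and -0.06 to 0.00 with a library left out (0.00 without ABCC1(WT) replicate 3). In the joint fit, ABCC2 was -0.05 with DESeq2 and with RLE size factors and -0.13 with 10 or more counts required in each library, where ABCC10 was -0.03.

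Over all genes, the called genes of RNA2 split into 425 higher and 156 lower, into 2473 and 370 with DESeq2, 350 and 438 with 10 or more counts required in each library and 2106 and 2818 with a shared spread. Those of RNA3 split into 741 and 280, and into 966 and 199 with RLE size factors and 1450 and 141 with DESeq2. Of the 30 levels in Puro libraries, 15 moved by more than 1 SD when the olfactory receptor level was subtracted, and 15 when the level of genes silent in RNA1 was subtracted, a choice made after seeing the data. RLE size factors moved 0. Depth limits the low members: in RNA1, ABCC3 rests on 31 to 93 counts per library.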
